A study of Mus musculus with 12 samples.

Results

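The homologous recombination genes described here are Brca1, Bard1, Palb2, Brca2, Rad54l, Mus81, Eme1, Eme2 and Recql4. They were found by symbol, 9 of the 56748 genes in the count table, and by gene name in the table of splicing events, where 53 of 19323 events belonged to 8 of them and none to Bard1. RNA was compared between Sf3b1 K700E/+ and Sf3b1 +/+ G1E-ER4 cells, a line of murine erythroblasts that mature when estradiol activates their fusion of GATA1 with the estrogen receptor. Both genotypes had been made by CRISPR-Cas9 editing with a hygromycin cassette that was later excised, and all libraries used here were poly(A) RNA of cells after 24 h with estradiol, 3 per genotype. Each genotype was 1 clone, so a difference between the genotypes is also a difference between clones, and since no label says which culture a library came from, all p-values refer to the spread among libraries, which may be technical.

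Homologous recombination repairs a broken chromosome by copying the intact sister, and it also protects stalled replication forks. Broken ends are cut back to single strands, BRCA1 with BARD1 brings in PALB2 and BRCA2, the single strand then exchanges with the sister with the help of RAD54, and nucleases and helicases then take the joined molecules apart. Many of these genes are transcribed mainly in cycling cells, and SF3B1, the spliceosome subunit mutated here, takes part in the choice of the branch point and the 3′ splice site.

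The libraries held 44045337 to 50077827 counts in K700E/+ cells and 38785471 to 40702174 counts in +/+ cells. Sf3b1 itself did not pass the test, with a log2 fold change of 0.01 ± 0.05 (SE, K700E/+ over +/+). The library numbered 1 stood apart from the other 2 within each genotype. Erythroid markers summed to 8660 to 14497 CPM (counts per 1000000 counts of the library, after normalisation) in K700E/+ and 10745 to 15147 CPM in +/+ libraries, so the cells bore their labelled lineage in both. Granulocyte and macrophage markers were low but unequal, with a sum of 1.22 to 1.67 CPM in K700E/+ and 9.40 to 26.1 CPM in +/+ libraries. All 3 tested of these 9 fell, among them Lyz2 and Cybb, while Mpo and Elane were at or near 0 in every library. Mast cell and eosinophil markers summed to 1.018 to 3.50 CPM in K700E/+ and 10.4 to 35.4 CPM in +/+ libraries, and 3 of the 4 tested (6 in the list; 4 of 4 with the replicate number as a block) fell, led by Prg2 and Epx. Megakaryocyte markers summed to 10.1 to 19.3 CPM in K700E/+ and 17.4 to 28.6 CPM in +/+ libraries with none of 4 called (1 lower with the replicate block), and lymphoid markers to at most 0.140 CPM in any library. The part of these other cell types' genes in the results below was not tested.

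At the level of whole genes, 7 of the 9 members rose in K700E/+ cells, Brca2 fell and Eme2 did not pass the test. Palb2 moved most, by 1.68-fold, and the other 6 that rose lay between 1.21-fold and 1.29-fold. A call was an adjusted p under 0.05 in edgeR's quasi-likelihood test, which called 21.3% of the 12547 tested genes higher and 23.1% lower. The median log2 fold change was 0.35 over the 9 members and -0.01 over all tested genes. None of the 9 reached the study's limit for a differentially expressed gene, an absolute log2 fold change over 1, which 10.3% of tested genes passed in either direction. The K700E/+ libraries did not overlap the +/+ libraries in 8 of the 9, against 54.3% of all tested genes. In bulk RNA, fewer cells that express a gene and less RNA per cell cannot be told apart.

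**Figure D1:**
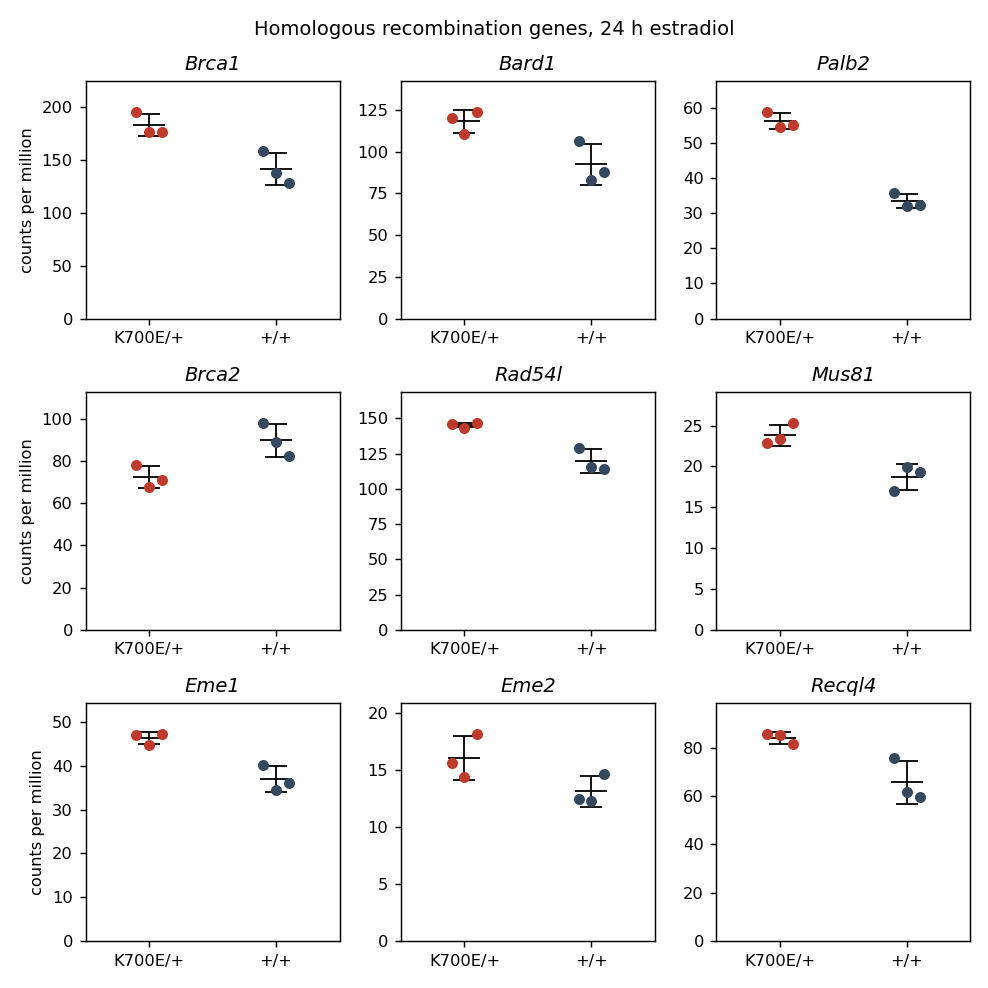
Normalised level of each member (y axis, CPM, starting at 0) in the 3 K700E/+ libraries (left) and the 3 +/+ libraries (right) after 24 h with estradiol. Points are libraries, horizontal lines the mean and bars 1 SD. The K700E/+ libraries lay above the +/+ libraries in 7 panels and below them for Brca2, and Eme2 overlapped.

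Brca1 and Bard1 encode partners that form a ubiquitin ligase that acts at broken ends. Brca1 had 194.9, 176 and 176 CPM in K700E/+ libraries and 158, 137 and 128 CPM in +/+ libraries. Its lowest K700E/+ library was above its highest +/+ library, and the log2 fold change was 0.37 ± 0.08 (SE, edgeR adjusted p = 0.00637). Bard1 had 120.1, 110.4 and 124 CPM in K700E/+ libraries and 106, 83.0 and 87.8 CPM in +/+ libraries. The genotypes came close at the edges, as the lowest K700E/+ library was only slightly above +/+ replicate 1. The Bard1 log2 fold change of 0.35 ± 0.09 had an edgeR adjusted p of 0.0140, and the call was lost without K700E/+ replicate 3 (0.0516) and without +/+ replicate 3 (0.0566).

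Palb2, whose product bridges BRCA1 and BRCA2, showed the widest separation of the 9. It had 58.7, 54.6 and 55.04 CPM in K700E/+ libraries, against 35.8, 32.1 and 32.4 CPM in +/+ libraries. The log2 fold change was 0.75 ± 0.07 (edgeR adjusted p = 4.4e-05) and lay between 0.72 and 0.80 under the 12 alternatives tried. Brca2, whose product is the partner of PALB2, went the other way, with 77.9, 67.7 and 71.0 CPM in K700E/+ libraries and 97.9, 88.8 and 82.6 CPM in +/+ libraries. All 3 K700E/+ libraries were below all 3 +/+ libraries, and the log2 fold change of -0.31 ± 0.08 had an edgeR adjusted p of 0.0120. Without K700E/+ replicate 2 the Brca2 call was lost (adjusted p = 0.0597), with a log2 fold change of -0.27.

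Rad54l encodes a DNA translocase that works during strand exchange. It had 146, 143 and 147 CPM in K700E/+ libraries, against 129, 116 and 114 CPM in +/+ libraries. The K700E/+ libraries were tightly grouped (145 ± 1.66 CPM, SD, n = 3), the +/+ libraries less so (119.7 ± 8.30 CPM), and the log2 fold change was 0.28 ± 0.06 (edgeR adjusted p = 0.00634). Its 3′ part overlaps Lrrc41 on the other strand in GENCODE M21, and Lrrc41 rose as well, by 0.27 ± 0.08 on the log2 scale (edgeR adjusted p = 0.0281). The libraries were stranded, but whether the counting used the strand is not given in the sources used here, so reads of the overlap cannot be assigned with certainty.

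Mus81 is the catalytic subunit of a nuclease that cuts branched DNA, and Eme1 and Eme2 are its alternative partners. Mus81 had 22.9, 23.3 and 25.3 CPM in K700E/+ libraries and 17.0, 19.9 and 19.3 CPM in +/+ libraries, without overlap. The log2 fold change was 0.35 ± 0.09 (edgeR adjusted p = 0.0118). Eme1 had 47.0, 44.8 and 47.3 CPM in K700E/+ libraries, against 40.2, 34.5 and 36.2 CPM in +/+ libraries, again without overlap, and a log2 fold change of 0.33 ± 0.07 (edgeR adjusted p = 0.00607). Eme2 was lower in level, with 15.6, 14.4 and 18.1 CPM in K700E/+ libraries and 12.4, 12.3 and 14.7 CPM in +/+ libraries, and here K700E/+ replicate 2 was below +/+ replicate 3. Its log2 fold change of 0.29 ± 0.12 did not pass (edgeR adjusted p = 0.0720). With the replicate number as a block the same difference passed (adjusted p = 0.00599), as it did with DESeq2 (0.0483) and without +/+ replicate 3 (0.0478). Eme2 overlaps Mapk8ip3 on the same strand and Spsb3 on the other, so its count is uncertain. The 2 neighbours had log2 fold changes of 0.09 ± 0.06 and 0.05 ± 0.06, neither called. Eme1 overlaps Lrrc59 and Mrpl27, and Mus81 overlaps Efemp2, all on the other strand in GENCODE M21. Reads of these overlaps cannot be assigned with certainty either. Lrrc59 had 252 to 304 CPM and rose by 0.20 ± 0.05 on the log2 scale (edgeR adjusted p = 0.0121). Mrpl27 was not called at -0.17 ± 0.07. Efemp2 was called higher by 5.29 ± 0.70 but had at most 0.579 CPM in any library.

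Recql4 is a RecQ helicase that acts in replication initiation and in repair. It had 85.5, 85.1 and 81.3 CPM in K700E/+ libraries and 75.9, 61.7 and 59.5 CPM in +/+ libraries. The genotypes did not overlap, with +/+ replicate 1 the nearest to the K700E/+ libraries, and the log2 fold change was 0.35 ± 0.09 (edgeR adjusted p = 0.0121). Recql4 overlaps Mfsd3 on the other strand in GENCODE M21, so reads of this overlap are uncertain too. Mfsd3 was not called at 0.15 ± 0.16 on the log2 scale.

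Levels of different genes were set side by side per kilobase of merged exons in GENCODE M21, since longer messages give more reads. In K700E/+ libraries Brca1 had 21.4 ± 1.25 CPM per kilobase (SD, n = 3), Bard1 20.9 ± 1.21, Recql4 19.3 ± 0.535, Rad54l 18.9 ± 0.216 and Eme1 16.8 ± 0.490 CPM per kilobase. Below a wide gap came Palb2 with 7.64 ± 0.310, Mus81 with 6.68 ± 0.362, Brca2 with 5.29 ± 0.380 and Eme2 with 2.67 ± 0.316 CPM per kilobase. Brca1 and Bard1, Bard1 and Recql4, and Recql4 and Rad54l overlapped between libraries, and the other neighbours did not. In +/+ libraries the upper 5 had 16.6 ± 1.78 (Brca1), 16.3 ± 2.17 (Bard1), 15.5 ± 1.08 (Rad54l), 15.1 ± 2.04 (Recql4) and 13.4 ± 1.06 (Eme1) CPM per kilobase, and each overlapped the next. Brca2 followed with 6.58 ± 0.565, then Mus81 with 5.25 ± 0.435, Palb2 with 4.55 ± 0.282 and Eme2 with 2.19 ± 0.223 CPM per kilobase. Of these lower genes, only Mus81 and Palb2 overlapped between +/+ libraries. By this length Palb2 was above Brca2 per kilobase in all 3 K700E/+ libraries and below it in all 3 +/+ libraries. Merged exons cover every annotated transcript of a gene, 9 for Palb2 and 14 for Brca2. They can therefore be longer than the message itself, and the gaps and ranks between genes depend on this choice of length.

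The rest of the pathway did not move as one. In 5 lists of other recombination genes, 33 of 34 genes were tested, and 11 rose, 5 fell and 17 were not called, with a median log2 fold change of 0.09 over the 33. With the replicate number as a block in the edgeR fit, 16 were called higher, 8 lower and 9 not called, and no call of the 33 was lost. The block also called more of all 12547 tested genes, 3471 higher and 3663 lower, against 2670 and 2899 without it. Of the 6 end resection genes 2 rose and 2 fell. Dna2, a nuclease and helicase of long resection, fell by 0.86 on the log2 scale (SE 0.08, edgeR adjusted p = 4.11e-05), and Rbbp8 (CtIP), which starts resection, fell by 0.25 (SE 0.06, adjusted p = 0.0107). Rad50, of the MRE11 complex, rose by 0.16 (SE 0.05, adjusted p = 0.0327). Of the 7 genes of BRCA1 complexes, Abraxas1 and Brcc3 rose by 0.33 and 0.27, Babam2 fell by 0.24, and 4 were not called. The block gave 3 higher and 3 lower. The 3 named belong to the BRCA1-A complex.

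Of the 4 strand exchange partners, Psmc3ip rose by 0.38 ± 0.07 on the log2 scale (edgeR adjusted p = 0.00307), and Mnd1 and Rad54b were not called at -0.08 ± 0.09 and 0.04 ± 0.07. Dmc1, which is known from meiosis, had no count and was not tested.

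The other RecQ helicases and anti-recombinases numbered 9, of which 3 rose and 1 fell (5 higher and 2 lower with the block). Blm, the helicase lost in human Bloom syndrome, rose by 0.79 ± 0.07 (edgeR adjusted p = 4.81e-05). Recql rose by 0.42 ± 0.06, and Fbh1, a helicase that limits recombination, fell by 0.50 ± 0.11 on the log2 scale. Of 8 genes of junction resolution 3 rose and 1 fell (5 higher and 1 lower with the block). Ercc1, a nuclease subunit, rose by 0.62 ± 0.08, Rmi1, a partner of BLM, by 0.33 ± 0.08 and Slx4, the scaffold that holds MUS81-EME1, by 0.23 ± 0.06.

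**Figure D2:**
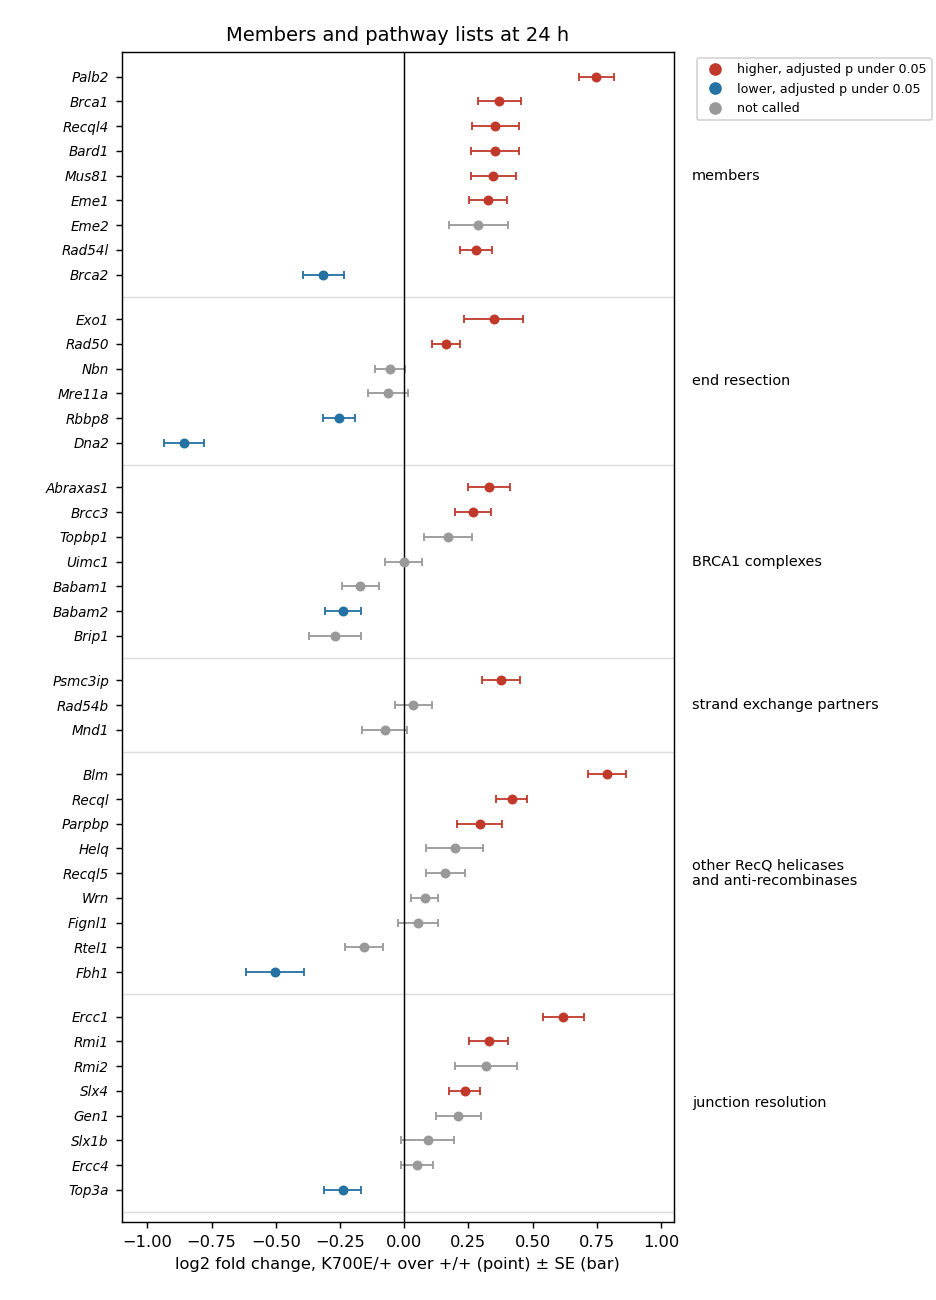
Log2 fold change (x axis, K700E/+ over +/+; bars are the SE) of the 9 members and of 33 tested genes in 5 pathway lists, from edgeR without the replicate block. Red genes were called higher, blue lower and grey not called. The members sit to the right of 0 except Brca2, while each list but the strand exchange partners holds calls on both sides.

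Genes of the cell cycle were examined beside these, because recombination genes are transcribed in cycling cells. Of 16 S phase genes 6 rose and none fell, with a median log2 fold change of 0.23, led by Cdc6 (0.79 ± 0.07) and Ccne1 (1.06 ± 0.14), which act at the start of replication. With the replicate block 10 were called higher and 1, Tyms, lower. Their summed level was 8158 to 8455 CPM in K700E/+ and 6404 to 7817 CPM in +/+ libraries. Of 16 genes of G2 and mitosis 4 rose and 1 fell, with a median of 0.09, led by Mki67 (0.88 ± 0.07) and Plk1 (0.36 ± 0.07), and the other 11 were not called. The block gave 7 higher and 2 lower. They summed to 5364 to 5390 CPM in K700E/+ and 3998 to 4567 CPM in +/+ libraries. Without Mki67 the genotypes overlapped, with 3577 to 3662 CPM in K700E/+ and 3104 to 3588 CPM in +/+ libraries. The part of these genes in the members' levels was not tested.

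In splicing, 6 of the 51 tested events of the members passed, all 6 with a lower share of the longer path in K700E/+ cells, and they lay in 6 different genes. The event table gives, for each event, reads of a longer path (a retained intron, a longer or an included exon) and of a shorter path. PSI is the share of the longer path, here after each path's reads were divided by its length. A differential splicing event (DSE) had an edgeR adjusted p under 0.05 and a PSI difference over 0.10, which 6.31% of 17656 tested events met in either direction. Brca1, Rad54l, Eme1, Eme2 and Recql4 each had 1 DSE of intron retention, among 32 such events tested in the members. Of all 5706 tested events of intron retention, 5.49% were DSEs with lower PSI. Brca2 had 1 DSE at an alternative donor, and Palb2 (5 events) and Mus81 (7 events) had none. Events of one gene can share reads, so they are not independent of each other.

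The number of DSEs depended on single libraries. Of the 6 calls, 1 was left without K700E/+ replicate 3, 2 without +/+ replicate 1, 3 without +/+ replicate 3, and 2 without both libraries numbered 1. Without K700E/+ replicate 2 the Brca1 and Eme2 calls were left, and without +/+ replicate 2 those of Brca1, Brca2 and Eme2. Without K700E/+ replicate 1 only the Brca2 call was lost. The Brca1 event was called in each of these fits and in all 12 alternatives in which it was tested at a PSI difference of 0.10.

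The Brca1 event is a short intron inside the long central exon that holds most of the coding sequence. It spans chr11:101415237-101415371 (GRCm39, minus strand), 135 nucleotides, a multiple of 3, and the table marks no frame shift. In GENCODE M21 the sequence is part of exon 10 of 23 (3315 nucleotides) of a coding transcript, and it is spliced out only in a short transcript with 1 intron. It is shown with 10 exon bases on each side, because this event was the most stable call among the members. Capitals mark the first and last 2 bases of the intron, which have the usual GT and AG.
Brca1 intron with flanks: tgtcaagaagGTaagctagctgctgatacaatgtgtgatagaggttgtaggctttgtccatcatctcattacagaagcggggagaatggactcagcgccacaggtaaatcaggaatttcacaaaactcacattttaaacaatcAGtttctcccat

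The retained path of this intron had 488, 403 and 348 reads in K700E/+ libraries and 361, 369 and 246 reads in +/+ libraries. The spliced path had 42, 52 and 29 reads in K700E/+ libraries, against 10, 12 and 8 reads in +/+ libraries. Every K700E/+ library thus had more reads across the spliced junction than any +/+ library. PSI was 0.812, 0.743 and 0.817 in K700E/+ and 0.931, 0.920 and 0.920 in +/+ libraries, a difference of -0.133 (edgeR adjusted p = 0.00037). Scaled to library size, the spliced path had 0.891 ± 0.244 CPM in K700E/+ and 0.247 ± 0.0482 CPM in +/+ libraries (SD, n = 3), a ratio of 3.61, and the retained path a ratio of 1.11 with overlapping libraries. The table marks the event as holding a single-nucleotide variant and as part of a group of overlapping events. The 2 other Brca1 events share a shorter path that skips the whole long exon, and differ in the variable part of the longer path, of 3315 or 3180 nucleotides. Both had PSI differences of -0.02 and rested on 40 reads of the shorter path in K700E/+ and 17 in +/+ cells. Neither was called.

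The Eme2 event is a 152-nucleotide intron at chr17:25112373-25112524 (GRCm39, minus strand), intron 4 of 7 in GENCODE M21. Its sequence is shown because a smaller part of the message kept it in every K700E/+ library, with 10 exon bases on each side and capitals as above.
Eme2 intron with flanks: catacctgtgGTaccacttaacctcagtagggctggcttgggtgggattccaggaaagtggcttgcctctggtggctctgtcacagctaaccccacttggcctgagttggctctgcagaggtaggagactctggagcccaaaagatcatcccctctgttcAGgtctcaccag

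PSI of the Eme2 intron was 0.210, 0.224 and 0.198 in K700E/+ libraries and 0.571, 0.311 and 0.350 in +/+ libraries. The K700E/+ libraries were close together and all below the +/+ libraries, of which replicate 1 stood far above the other 2. The difference was -0.20 (edgeR adjusted p = 0.0125), and without +/+ replicate 1 it was -0.119 and not called (adjusted p = 0.146); without K700E/+ replicate 3 the adjusted p was 0.0512. The spliced path had 68, 52 and 65 reads in K700E/+ libraries, against 18, 31 and 28 reads in +/+ libraries. Mapk8ip3, on the same strand, has a transcript in GENCODE M21 with an intron of the same length, so these reads cannot be assigned to one of the 2 genes with certainty. The other Eme2 intron in the table, of 71 nucleotides, had a PSI of 0.296 in K700E/+ and 0.441 in +/+ cells and was not called (adjusted p = 0.113).

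In Eme1 the DSE was a 488-nucleotide intron at chr11:94540346-94540833 (GRCm39, minus strand), of which 1 of the 2 splice sites is not annotated and whose removal shifts the frame. PSI was 0.233, 0.223 and 0.211 in K700E/+ libraries and 0.335, 0.515 and 0.427 in +/+ libraries, a difference of -0.203 (edgeR adjusted p = 0.0175). The libraries did not overlap. This was the DSE in which the retained path itself was lower in every K700E/+ library, with 69, 55 and 57 reads in K700E/+ and 68, 83 and 74 reads in +/+ libraries before scaling to depth. Scaled to library size they were 1.31 ± 0.0783 CPM in K700E/+ and 1.85 ± 0.158 CPM in +/+ libraries (SD, n = 3). Without K700E/+ replicate 2 or 3, or without +/+ replicate 2 or 3, the adjusted p lay between 0.0555 and 0.108.

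The Rad54l DSE was its first intron of 18 in GENCODE M21, 330 nucleotides at chr4:115980346-115980675 (GRCm39, minus strand). PSI was 0.440, 0.390 and 0.337 in K700E/+ and 0.510, 0.486 and 0.545 in +/+ libraries. The genotypes did not overlap, with a difference of -0.125 (edgeR adjusted p = 0.0440). Spliced reads were 83, 84 and 102 in K700E/+ libraries, against 54, 55 and 40 in +/+ libraries, while retained reads were 331, 272 and 263 in K700E/+ and 285, 264 and 243 in +/+ libraries. The call was lost without any one of 5 libraries, all but K700E/+ replicate 1, at adjusted p-values of 0.0638 to 0.215. A wider form of the same intron, 352 nucleotides with an unannotated donor, was singled out after its values were seen, because the replicate block changed its call: PSI was 0.745 in K700E/+ and 0.861 in +/+ cells, a difference of -0.116 (adjusted p = 0.0590, and 0.0212 with the block).

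Recql4 had the most events, 16, of which 1 was a DSE and 13 had a lower PSI in K700E/+ cells. The DSE was intron 12 of 21, 78 nucleotides at chr15:76590539-76590616 (GRCm39, minus strand), both sites annotated. PSI was 0.161, 0.0625 and 0.115 in K700E/+ libraries and 0.310, 0.229 and 0.171 in +/+ libraries, and the highest K700E/+ library was just below the lowest +/+ library. The difference was -0.124 (edgeR adjusted p = 0.0400). Spliced reads were 100, 76 and 78 in K700E/+ libraries, against 36, 46 and 32 in +/+ libraries. Without K700E/+ replicate 2 or 3 or +/+ replicate 1 or 2 the adjusted p was between 0.0926 and 0.226.

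In Brca2 the DSE was an alternative donor in the region of intron 1, 192 nucleotides apart, at chr5:150446323-150446680 (GRCm39, plus strand). PSI was 0.735, 0.767 and 0.696 in K700E/+ libraries and 1.00, 0.921 and 1.00 in +/+ libraries, a difference of -0.241 (edgeR adjusted p = 0.0387). It rested on few reads of the shorter path, 4, 1 and 3 in K700E/+ libraries and 0, 1 and 0 in +/+ libraries. Its call was lost without any one of K700E/+ replicates 1, 2 and 3 and +/+ replicates 1 and 3, at adjusted p-values of 0.0650 to 0.191. Of the 5 Brca2 events 2 had under 10 reads in some library and were not tested.

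**Figure D3:**
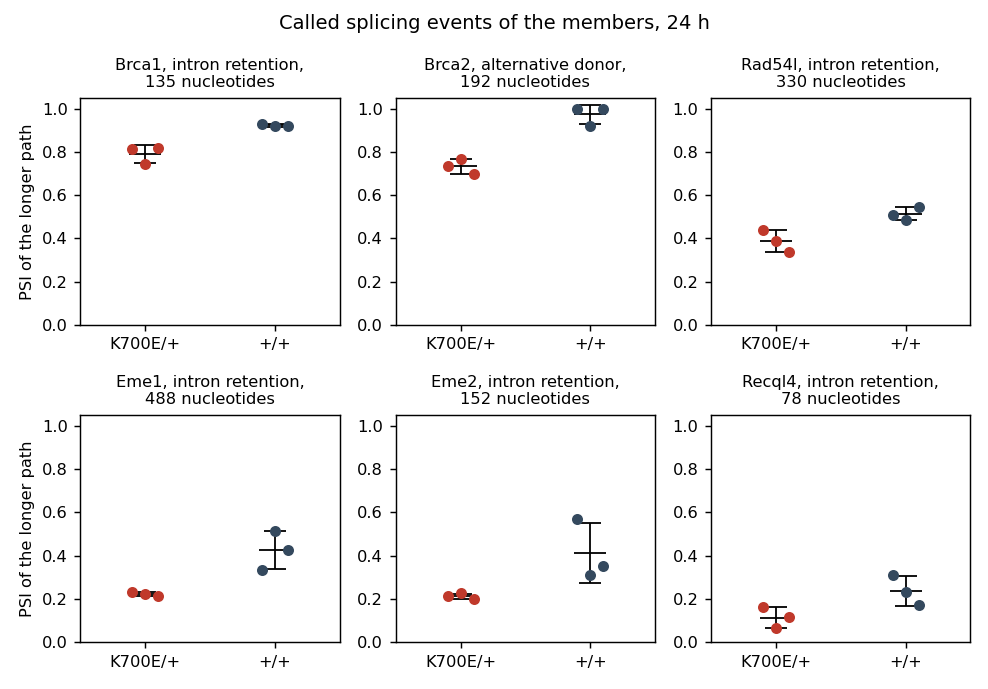
PSI of the longer path (y axis, 0 to 1) for the 6 called events of the members, K700E/+ libraries left and +/+ libraries right. Points are libraries, horizontal lines the mean and bars 1 SD. All 3 K700E/+ libraries lay below all 3 +/+ libraries in each panel, and the spread of the +/+ libraries was widest for Eme2.

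Beyond the called events, a lower PSI was the common direction in the members. It was lower in K700E/+ cells in 41 of 51 events (80.4%), against 59.6% of all tested events, and in 26 of 32 events of intron retention (81.3%), against 66.8% of all 5706. The median PSI difference of intron retention was -0.060 in the members and -0.019 over all genes. Of the 6 with a higher PSI, 4 lay together at the 3′ end of Rad54l, with differences of 0.003 to 0.020. Of these 4, 3 match the length of an intron of Lrrc41 and none that of a Rad54l intron in GENCODE M21, so that they may not belong to Rad54l. Without them 26 of 28 were lower, but that count leaves out only events with a higher PSI. Both Eme2 introns and a Recql4 intron of 79 nucleotides also match the length of an intron of an overlapping gene, Mapk8ip3 or Mfsd3. These had a lower PSI and were kept.

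In the members, reads of the spliced path differed more between the genotypes than reads of the retained path. Spliced reads, scaled to library size as CPM, were higher in K700E/+ cells in 30 of 32 events of intron retention, against 54.9% of all such events tested. The median log2 ratio was 0.56 in the members and 0.06 over all genes. Some of the 32 events are overlapping forms of the same intron, and the events at the 3′ end of Rad54l are among them. Retained reads, scaled alike, had a median log2 ratio of -0.06 in the members and -0.16 over all genes. Retained reads were lower in every K700E/+ library than in any +/+ library in 1 of 32 events, against 28.1% of all such events tested. The called Brca1 intron had log2 ratios of 1.81 (spliced) and 0.15 (retained), and the called Eme2 intron of 1.08 and -0.29. The counts of 7 of the members were also higher as whole genes, and the part of that in the spliced reads was not tested.

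**Figure D4:**
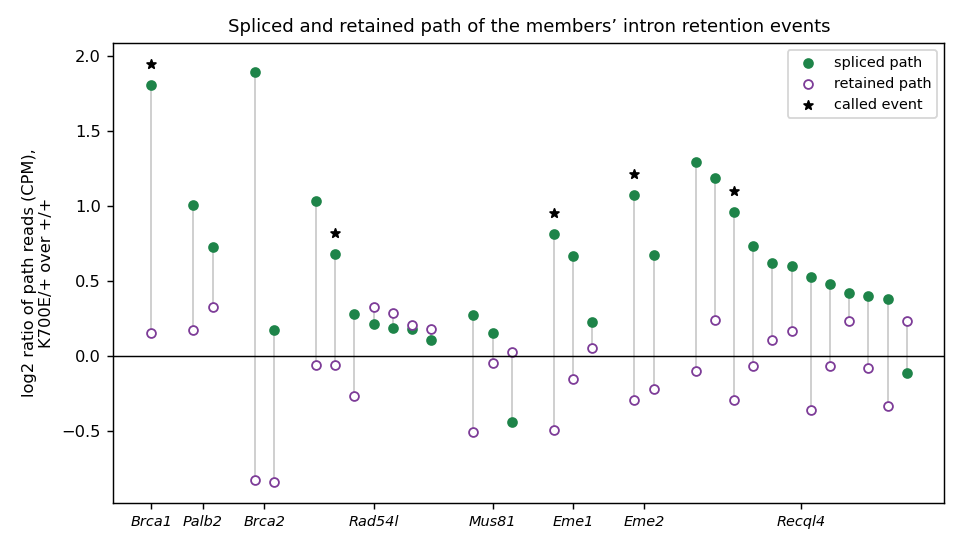
Log2 ratio of path reads in CPM (y axis, K700E/+ over +/+, group means with 0.01 added) for the 32 tested events of intron retention, ordered within each gene along the x axis. Filled points are the spliced path, open points the retained path, and stars mark DSEs. Filled points are above 0 in 30 events, and open points lie near 0 for most.

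Palb2 and Mus81 had no DSE. The widest difference in Palb2 was in a 174-nucleotide intron with a PSI of 0.617 in K700E/+ and 0.727 in +/+ cells (difference -0.110, edgeR adjusted p = 0.771), on 16 spliced reads in K700E/+ and 8 in +/+ cells. In Mus81 it was in an alternative acceptor of 107 nucleotides with a PSI of 0.433 in K700E/+ and 0.601 in +/+ cells (difference -0.168, adjusted p = 0.522). At this depth these differences did not pass the test. A Palb2 intron of 1114 nucleotides (intron 11 of 12, chr7:121710054-121711167, GRCm39, minus strand), chosen after its values were seen, was better covered. Its PSI was 0.140, 0.150 and 0.144 in K700E/+ libraries and 0.236, 0.174 and 0.304 in +/+ libraries, without overlap, on 196 spliced reads in K700E/+ and 85 in +/+ cells. The difference of -0.093 had an edgeR adjusted p of 0.0586, or 0.0175 with the replicate block, and lies below the PSI limit of 0.10 in both fits. Thus the member with the largest change in level, Palb2, had no called splicing event.

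An unannotated acceptor shortly before the annotated one, the kind of site for which mutant SF3B1 is known, was found in intron 3 of Recql4. It lies 20 nucleotides upstream of the annotated acceptor of the 192-nucleotide intron at chr15:76594109-76594300 (GRCm39, minus strand). The last 60 bases of the intron and 10 bases of the next exon are shown to place both sites, with the AG of each in capitals, the unannotated one first.
Recql4 intron 3 end: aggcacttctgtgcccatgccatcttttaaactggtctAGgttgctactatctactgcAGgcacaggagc

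The upstream site was used by a minority of reads in both genotypes. Its share was 0.119 in K700E/+ and 0.096 in +/+ cells, on 51 and 25 reads, and the difference of 0.023 did not pass (edgeR adjusted p = 0.700). Retention of the whole intron had a PSI of 0.148 in K700E/+ and 0.205 in +/+ cells and was not called either (adjusted p = 0.291). Retention of the 172 nucleotides up to the unannotated acceptor, an event singled out after its values were seen, had a PSI of 0.664, 0.605 and 0.588 in K700E/+ libraries and 0.864, 0.802 and 0.794 in +/+ libraries. The genotypes did not overlap, and the mean difference of -0.201 was not called (edgeR adjusted p = 0.104, or 0.0923 with the block). It rests on 30 spliced reads in K700E/+ and 10 in +/+ cells, with 2.62 times the spliced CPM in K700E/+ and every K700E/+ library above every +/+ library.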

How the data were processed

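The authors sequenced poly(A) RNA (stranded libraries, paired reads) and, per the labels, aligned with STAR 2.7.9 to GRCm39; DESeq2 1.30.1 is named in the submitters' processing notes. They deposited raw counts per gene and library. They also deposited, as other values packed in text cells, the KisSplice reads of both paths of each event (2 read files per library, in which both mates of a pair can be counted), path lengths and PSI. The counting tool's settings are not given in the sources used here. Libraries at 0 h were not analysed here.

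The gene test was edgeR 4.0.16 (R 4.3.3; filterByExpr, TMM, quasi-likelihood), with p adjusted by Benjamini-Hochberg over 12547 genes. Events (retained introns, skipped exons, alternative sites) needed 10 reads over both paths in every library. Longer-path reads summed both junctions and the variable part, with reads over both junctions counted once. For events, the edgeR test was of the interaction of path with genotype, beside 1 term per library. The recomputed PSI and the deposited PSI had a Pearson correlation of 0.983 over 111044 values, with 13.4% within 0.01. Steps were tested on simulated data with larger fold changes than those of the members and with PSI changes placed in the middle of the range. That test does not give error rates for changes as small as those of the members.

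Equally numbered libraries deviated together (correlations of 0.63, 0.48 and 0.48 over 8771 genes with at least 5 CPM), so the numbers were taken as pairs and a fit with the replicate block was run. Adjusted p-values given without mention of the block, and all fits that left out libraries, ignore this pairing. No 2 libraries of a genotype agreed within sampling noise. Intervals and tests at this depth cover these libraries only.

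All 9 members are named. Of each pathway list up to 3 genes with the lowest adjusted p are named, and of each marker or cycle list up to 2. Every DSE is named, and for members without one the event with the widest PSI difference. One pathway list is not reported here. The members, lists and rules were chosen with earlier results of these data known. Alternatives were DESeq2 1.42.0 size factors and Wald test, no filter, the study's filter, the block, other read minimums, junction reads, limma 3.58.1 on logit PSI, a PSI limit of 0.20, events without complex, paralog or variant marks, and leaving out libraries. Introns were matched to GENCODE M21 (GRCm38) by gene and length, and sequences were read from its transcripts; coordinates are those of the event table.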

Additional observations from a re-analysis of the deposited data

How the results depend on the processing

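The number of the 9 members called higher was 7 in every fit except with the DESeq2 Wald test and the replicate block (8 each) and without K700E/+ replicate 3 (6). The genes behind this number were not always the same, as without +/+ replicate 3 they included Eme2 and not Bard1. Leaving out single libraries gave 6 to 7 higher and 0 to 1 lower. No member reversed its direction under any of the 12 alternatives. DSEs with lower PSI numbered 2 with limma on logit PSI, 1 without complex, paralog and variant events, 2 at a PSI difference over 0.20, 2 without both libraries numbered 1 (an alternative added after seeing the data) and 1 to 5 without single libraries, against 6. The 2 with limma were those of Brca1 and Brca2. The counts without K700E/+ replicate 2 (4) and without +/+ replicate 2 (5) include events that were not among the 6. With junction reads only 4 were called, namely the Brca1, Eme2 and Rad54l events of the 6 and an event outside the 6. The Eme1 and Recql4 calls were lost (edgeR adjusted p = 0.179 and 0.0765), and the Brca2 event was not tested in that fit. The count at 0.20 is lower by construction, and that without complex events because most member events were left out. With the replicate block 7 were called. Among the members and their events the block changed only the calls of Eme2 and the 352-nucleotide Rad54l intron. It also added calls for 22 genes of the other lists, 8 of them in the pathway lists, and removed none there. Over all tested genes it called 3471 higher and 3663 lower, against 2670 and 2899 without it. No DSE with higher PSI appeared in any alternative. The Brca2 call rests on 8 shorter-path reads in K700E/+ and 1 in +/+ cells.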
